A study of Mus musculus with 13 samples.

Results

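Rotenone blocks complex I of the mitochondrial respiratory chain, and 9 genes that bring glucose into a cell and carry it through the first steps of glycolysis were followed here in murine cortical neurons exposed to it. The genes were the glucose transporters Slc2a1 and Slc2a3, the hexokinases Hk1 and Hk2, the isomerase Gpi1, the 3 phosphofructokinase subunits Pfkl, Pfkm and Pfkp, and Pfkfb3, which makes the activator of phosphofructokinase. Members were the probes whose description gives one of these symbols, or an older alias of it, in brackets. The rule found 13 probes of 24613 with a signal. Of these 12 were detected on at least 3 arrays, and the exception, another Pfkp probe, with signals from 36.5 to 51.8, was detected on no array. All 9 genes kept at least 1 detected probe, and the brightest stood for its gene among the 11064 genes tested.

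The data were Illumina MouseRef-8 V1.1 bead array signals from 13 RNA samples of primary neocortical cultures, prepared from Swiss albino mouse fetuses at gestational day 15 to 16 and labelled as day 5 of culture. No gene had been altered in these mice, as far as the labels say. One group of 4 arrays received vehicle, and groups of 3 received 10 nM rotenone, diluted from a DMSO stock into NeuroBasal medium, for 8 h, 15 h or 24 h. The titles show that the vehicle samples also served another compound. The sources used here do not give the hour at which vehicle samples were collected, so drug and time in culture cannot be told apart in a change against control. Every change against control uses the same 4 vehicle arrays. Nothing says whether replicates were grown as separate cultures, so a p-value here reflects only the spread among the samples at hand, and the small number of arrays limits the precision.

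Facts of the whole series bear on the values below. The mean signal per array was 371 ± 34.2 (SD, n = 4) in controls, 363 ± 34.8 at 8 h, 270 ± 16.1 at 15 h and 235 ± 20.7 at 24 h (n = 3 each), while 50.4% to 53.3% of probes were detected on each array. Deposited signals are given per array as they stand, in the order of replicates, and are not scaled between arrays. Changes are log2 differences after normexp background correction and quantile scaling, with limma's standard error and a Benjamini-Hochberg adjusted p over all genes tested. A gene was called where that p was under 0.05. In the deposited gene profile the signals of each of the 13 samples appear under the array of a different replicate, always within its own group, so groups are unaffected but an array's chip is uncertain. Of 7 detected neuron markers of 9 listed, Map2, Tubb3, Snap25, Syt1, Syp, Stmn2 and Gap43 were present, and Rbfox3 and Nefl were not detected on 3 arrays. Astrocyte markers (8 of 10) and oligodendrocyte lineage markers (8 of 9) were detected too.

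Glucose crosses the plasma membrane through facilitative carriers, of which Slc2a1 (GLUT1) is the form of brain endothelium and glia and Slc2a3 (GLUT3) the form typical of neurons. A hexokinase then traps glucose as glucose 6-phosphate, Gpi1 turns it into fructose 6-phosphate, and phosphofructokinase commits it to glycolysis. Fructose 2,6-bisphosphate, made by Pfkfb3, is the strongest known activator of phosphofructokinase, and in healthy neurons the Pfkfb3 protein is kept low by continual degradation. Slc2a1, Hk2 and Pfkfb3 are textbook targets of the hypoxia-inducible factor HIF, which binds the core ACGTG or GCGTG.

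The promoters of the 3 members with the largest rises are shown because they are these textbook targets, and that of Gpi1 because it holds none of the letters searched. Each is the 250 bases before a RefSeq transcript start in GRCm38.p6, 5′ to 3′ on the gene's strand, with matches to ACGTG or GCGTG on either strand in capitals (CACGT or CACGC where the match is on the other strand).
Slc2a1, chr4:119108495-119108744, plus strand: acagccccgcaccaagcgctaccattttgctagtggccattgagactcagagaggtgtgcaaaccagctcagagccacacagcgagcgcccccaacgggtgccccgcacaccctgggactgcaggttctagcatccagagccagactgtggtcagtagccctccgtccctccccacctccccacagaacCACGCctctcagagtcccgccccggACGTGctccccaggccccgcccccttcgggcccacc
Hk2, chr6:82774455-82774704, minus strand: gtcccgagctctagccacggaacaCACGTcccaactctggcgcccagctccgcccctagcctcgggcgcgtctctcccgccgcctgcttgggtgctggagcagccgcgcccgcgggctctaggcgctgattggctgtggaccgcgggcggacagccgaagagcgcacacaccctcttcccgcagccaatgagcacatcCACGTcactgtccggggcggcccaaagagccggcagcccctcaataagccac
Pfkfb3, chr2:11553930-11554179, minus strand: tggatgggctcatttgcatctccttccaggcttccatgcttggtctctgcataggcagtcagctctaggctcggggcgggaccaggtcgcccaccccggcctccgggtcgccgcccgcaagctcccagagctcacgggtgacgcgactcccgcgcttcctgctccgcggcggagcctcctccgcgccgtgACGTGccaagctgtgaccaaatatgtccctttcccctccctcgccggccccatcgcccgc
Gpi1, chr7:34230337-34230586, minus strand: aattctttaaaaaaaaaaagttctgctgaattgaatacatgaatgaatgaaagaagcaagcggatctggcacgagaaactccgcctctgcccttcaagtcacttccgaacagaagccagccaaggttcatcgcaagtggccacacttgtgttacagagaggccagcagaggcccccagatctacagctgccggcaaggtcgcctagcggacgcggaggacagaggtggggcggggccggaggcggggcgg

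The Slc2a1 window holds ACGTG beginning 36 bases before the start and GCGTG at 61 bases. The Hk2 window holds ACGTG at 226 and at 52 bases, and the Pfkfb3 window at 60 bases. The second Pfkfb3 window, at an inner transcript start (chr2:11502091-11502340), holds GCGTG at 122 bases and CACGTG at 53 bases, the E-box read by the carbohydrate response factor, which includes ACGTG on both strands. Of the remaining windows, Pfkp holds GCGTG at 136, 68 and 23 bases and Pfkl holds it at 99 bases. Of the 4 Pfkm windows 2 hold ACGTG and 2, which overlap, hold GCGTG at the same site. One of the former holds CACGTG too, at 136 bases, in a gene that fell. The outer Hk1 window holds neither, and the inner one holds GCGTG at 3 places and the antioxidant response letters TGACNNNGC. No member window holds the amino acid response letters TGATGNAA. Among 32851 RefSeq windows of the same length 16.6% hold ACGTG, 28.2% GCGTG, 6.02% CACGTG, 10.2% TGACNNNGC and 3.45% TGATGNAA. Matches were thus found in members that rose and in members that fell. The table used gave 13 windows for 8 members, and Slc2a3 is named only.

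The carriers moved in opposite directions, with a rise of Slc2a1 and a fall of Slc2a3 at 15 h and 24 h. Slc2a1 (chromosome 4, 119108745 to 119137330) gave deposited signals of 255.1, 257.2, 392 and 194.1 in controls and 423.9, 209 and 383.5 at 8 h. They were 2072.3, 1099.3 and 1019.9 at 15 h, and 2190.6, 2286.5 and 2471.8 at 24 h. All 15 h and 24 h arrays lay above every control, whereas at 8 h replicates 1 and 3 lay near control replicate 3, the highest control, and replicate 2 among the others. The log2 change was 0.29 ± 0.24 at 8 h (adjusted p = 0.746), 2.73 ± 0.24 at 15 h (2.16e-07) and 3.77 ± 0.24 at 24 h (2.96e-09), or 13.7-fold at 24 h. Among all genes tested it stood 6th from the largest rise at 15 h and 9th at 24 h. From 15 h to 24 h it rose further, by 1.04 ± 0.26 (adjusted p = 0.00867). Replicate 1 was the highest of the 15 h arrays, at 11.35 on the normalized log2 scale against 10.27 and 10.28, below all 24 h arrays (11.61 to 11.73).

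Slc2a3 (chromosome 6, 122727809 to 122802363) gave signals of 2142.1, 2068.3, 2968.6 and 1428.9 in controls and 1530.7, 1733 and 1328.6 at 8 h. They were 341.4, 551.5 and 476.3 at 15 h and 429, 481.3 and 506.7 at 24 h. Every 15 h and 24 h array lay below every control and every 8 h array, and the 8 h arrays overlapped the lowest control. The log2 change was -0.42 ± 0.17 at 8 h (adjusted p = 0.360), -1.56 ± 0.17 at 15 h (1.64e-06) and -1.30 ± 0.17 at 24 h (7.36e-06), the latter 2.46-fold lower. Between 15 h and 24 h it differed by 0.26 ± 0.18 (adjusted p = 0.331).

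**Figure D1:**
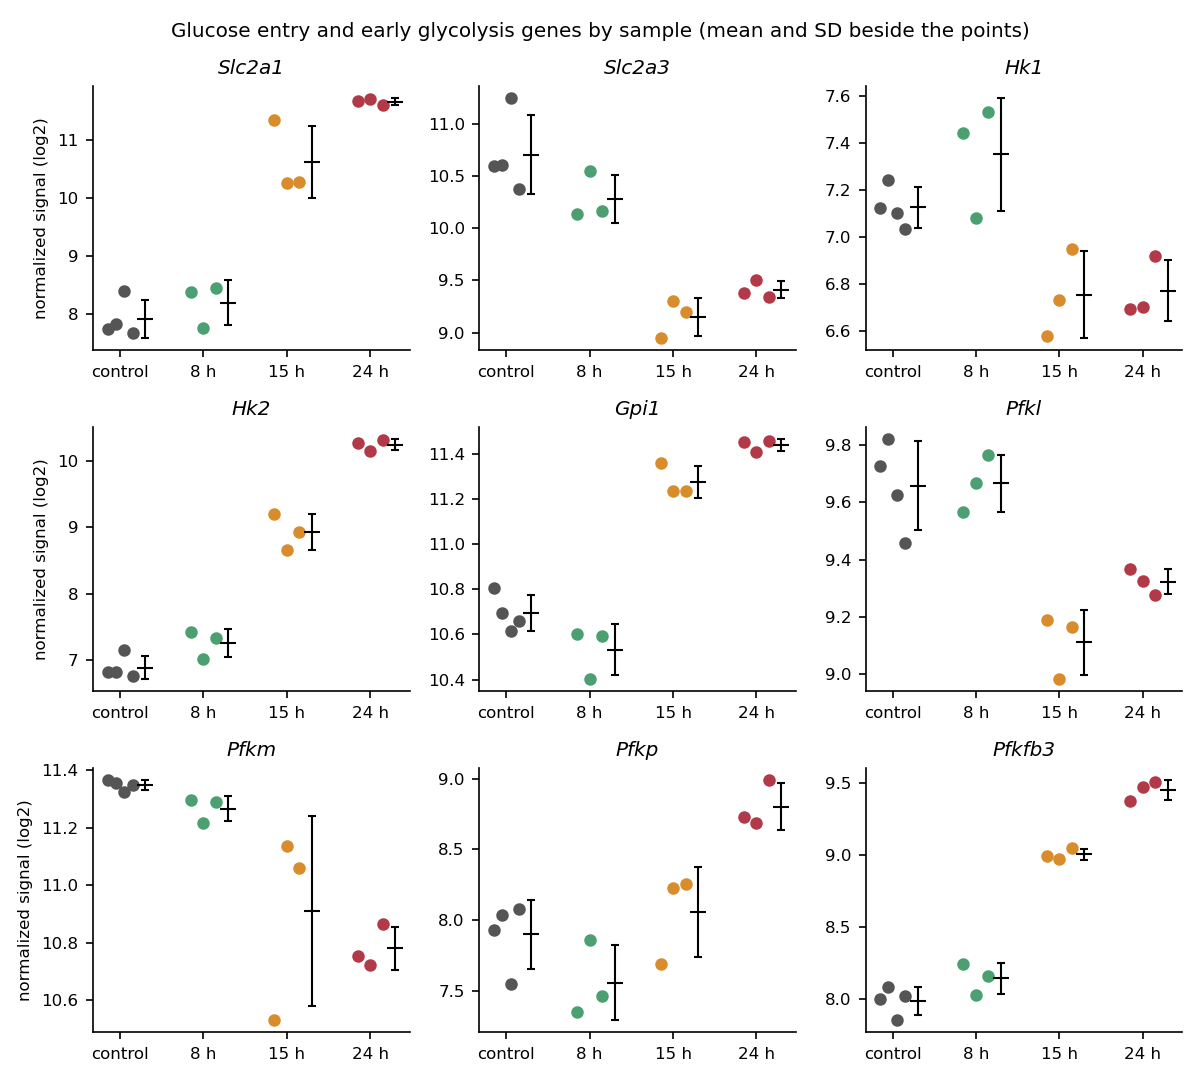
Normalized log2 signal of the 9 members on each array (points, in the order of replicates), for 4 vehicle controls and 3 arrays at each time of rotenone, with the mean and SD of the group beside them. Slc2a1, Hk2 and Pfkfb3 stand above all controls at 15 h and 24 h and Slc2a3 stands below them. Axes differ between panels and do not start at 0.

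The rise of Slc2a1 and the fall of Slc2a3 were set against each other within each array, which removes a factor common to the array. Background correction and quantile scaling came first and are not such a factor, so the differences still depend on them. The log2 difference Slc2a1 minus Slc2a3 averaged -2.80 ± 0.07 (SD, n = 4) in controls, -2.09 ± 0.61 at 8 h, 1.49 ± 0.80 at 15 h and 2.27 ± 0.04 at 24 h (n = 3 each). At 8 h it ranged from -2.80 to -1.71, so that 1 array lay among the controls and the others above them. The difference moved by 5.07 from control to 24 h, and an exact permutation test over the 4 groups gave p = 9.99e-05 and an adjusted p of 1.67e-04 over 5 pairs. For 24 h against control alone the exact two-sided p was 0.0286 over 35 arrangements. A signal also depends on the probe, so this difference shows unequal change and not which transcript was more abundant.

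Cell type markers changed as well, not all at the same times. The summed normalized signal of the 7 neuron markers was 19084.5 to 21002.7 in controls, 21432.5 to 22640.9 at 8 h, 4425.24 to 7544.54 at 15 h and 6201.51 to 6401.83 at 24 h. Of these 7, 5 fell and 1 rose at 15 h, and 6 fell at 24 h. The one that rose was Snap25 (0.20), from a signal detected on no control array. The 8 astrocyte markers summed to between 11903.3 and 13851.7 in controls, 7937.85 and 11512.2 at 8 h, 26152.9 and 31416 at 15 h, and 21790 and 23545.4 at 24 h, with Slc1a2 and S100b not detected on 3 arrays. Of them 4 rose at each of the later times, and 2 fell at 24 h. With median scaling Slc1a3 and Gja1 stayed called higher at both times, but Aldh1l1, Sox9 at 15 h and Gfap at 24 h did not. The falls of Aqp4 and Sox9 at 24 h stayed called. Endothelial cells, which carry Slc2a1 in the brain, showed 4 of 10 markers, with Pecam1, Kdr, Tek, Cdh5, Abcb1a and Tie1 not detected on 3 arrays. Those 4 summed to 416 to 505 in controls, 429 to 529 at 8 h, 809 to 1056 at 15 h and 711 to 728 at 24 h. Of these, Slco1c1 rose by 1.64 and 1.08 at 15 h and 24 h, and Flt1, detected on 1 of 4 control arrays, by 0.20 and 0.76. Cldn5 and Esam were not called at either time. Microglia markers (6 of 8, without Csf1r and Cx3cr1) went from 866 to 946 in controls to 2912 to 3068 at 24 h. There Cd68 (2.79), Laptm5 (2.02), Tyrobp (0.78) and C1qa (0.33) were called higher, and C1qb and Aif1 were not called. Fibroblast markers (4 of 8, without Col1a1, Col1a2, Col3a1 and Lum) went from 1613 to 2304 to 10353 to 11449, with Acta2 (3.53) and Fn1 (1.89) higher and Dcn (-0.49) and Thy1 (-0.96) lower at 24 h. Oligodendrocyte lineage markers (8 of 9, without Mag) summed to 11479 to 12552 in controls, 7157 to 9751 at 8 h, 9318 to 14484 at 15 h and 4344 to 4786 at 24 h, so that they lay below all controls at 8 h and 24 h and overlapped them at 15 h. The astrocyte sum too lay below all controls at 8 h, and the neuron sum lay above them. At 8 h limma called 1 of 8 oligodendrocyte lineage markers (Gpr17, -1.19) and 1 of 8 astrocyte markers (Sox9, -0.71), both lower. None of the neuron markers was called there. Of the oligodendrocyte lineage markers 6 fell and 1 (Cspg4, 0.35) rose at 24 h, the rise not called with median scaling. The part of these shifts in the changes of the carriers was not tested, and in bulk RNA fewer cells of a type and less RNA per cell cannot be told apart.

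The genes most like each carrier over the 13 arrays were named by Pearson's r, as a description over arrays that share their groups. For Slc2a1 they were Snap23, a SNARE protein of membrane fusion (r = 0.992), Slc6a9, a glycine transporter (0.992), Ascc2 (0.991), Osbpl6 (0.989) and Adm, the precursor of the peptide adrenomedullin (0.989), which was detected on 0 of 4 control arrays. For Slc2a3 they were Htr1a, a serotonin receptor (0.972) that was detected on no array at 15 h or 24 h, Cacng3, an auxiliary subunit of AMPA receptors (0.963), Rgs4, a regulator of G protein signalling (0.963), Sh3rf3 (0.962) and the kinase Mapk9 (0.957). The rise of Snap23 was 1.37 and that of Slc6a9 1.82 on the log2 scale at 24 h. The fall of Rgs4 was -1.85 and that of Mapk9 -0.48.

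Other glucose carriers moved in both directions. Of 11 listed 6 were measured, of which none was called at 8 h, 3 were higher and 2 lower at 15 h, and 2 were higher and 1 lower at 24 h (2 and 2 with median scaling). Their median log2 change at 24 h was 0.00, against 0.01 over all genes. The lysosomal carrier Slc2a6 fell by 0.96 at 15 h and by 1.19 at 24 h, and Slc2a8, a carrier of internal membranes, fell by 0.31 at 15 h. Slc2a10 rose by 0.34 at 15 h, and Slc2a4, the insulin-regulated carrier of muscle and fat, rose by 0.32 and 0.29 at the later times from a signal detected on 1 of 4 control arrays. Slc2a9 was detected on no control array, which leaves only a bound there, and on all 3 arrays at 24 h.

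The hexokinases divided as well, with a steep rise of Hk2 and a small fall of Hk1. Hk2, the form of muscle and of growing and hypoxic cells (chromosome 6, 82725025 to 82774454), gave signals of 114.3, 105.5, 146.3 and 88.2 in controls and 195.3, 110.4 and 155.6 at 8 h. They were 417.7, 359.3 and 401.7 at 15 h and 797.5, 763.5 and 991.1 at 24 h. The arrays of 15 h lay above all controls and all 8 h arrays, and those of 24 h above all of 15 h. The log2 change was 0.37 ± 0.14 at 8 h (adjusted p = 0.325), 2.05 ± 0.14 at 15 h (1.93e-08) and 3.37 ± 0.14 at 24 h (3.07e-11), or 10.3-fold. Hk2 ranked 30th from the largest rise at 15 h and 17th at 24 h, and between these times it rose by 1.32 ± 0.15 (adjusted p = 1.26e-05).

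Hk1, the housekeeping hexokinase of the brain (chromosome 10, 62268855 to 62379920), gave signals of 152, 157.6, 140.6 and 113.8 in controls and 199.3, 117.5 and 187 at 8 h. They were 70.1, 85.4 and 95.6 at 15 h and 68.4, 68.2 and 89.1 at 24 h. Later arrays lay below all controls, but by little. The log2 change was 0.23 ± 0.12 at 8 h (adjusted p = 0.521), -0.37 ± 0.12 at 15 h (0.0146) and -0.35 ± 0.12 at 24 h (0.0170). At 15 h the call ended without replicate 1 (-0.28, adjusted p = 0.0673), and at 24 h without replicate 1 (-0.32, 0.0694) or replicate 2 (-0.32, 0.0675) of that group. Within each chip the 24 h value ranged from -0.49 to -0.15 and was called in 1 of 4 fits, as the labels or the matched signals assign chips.

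Within an array the log2 difference Hk2 minus Hk1 averaged -0.24 ± 0.20 (SD, n = 4) in controls, -0.10 ± 0.10 at 8 h, 2.17 ± 0.38 at 15 h and 3.48 ± 0.09 at 24 h (n = 3 each). It moved by 3.72 to 24 h, and the exact permutation test over the 4 groups gave p = 5.49e-05 (adjusted p = 1.67e-04 over 5 pairs). For 24 h against control alone the exact two-sided p was 0.0286 over 35 arrangements. Control and 8 h arrays overlapped, and no later array overlapped them.

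**Figure D2:**
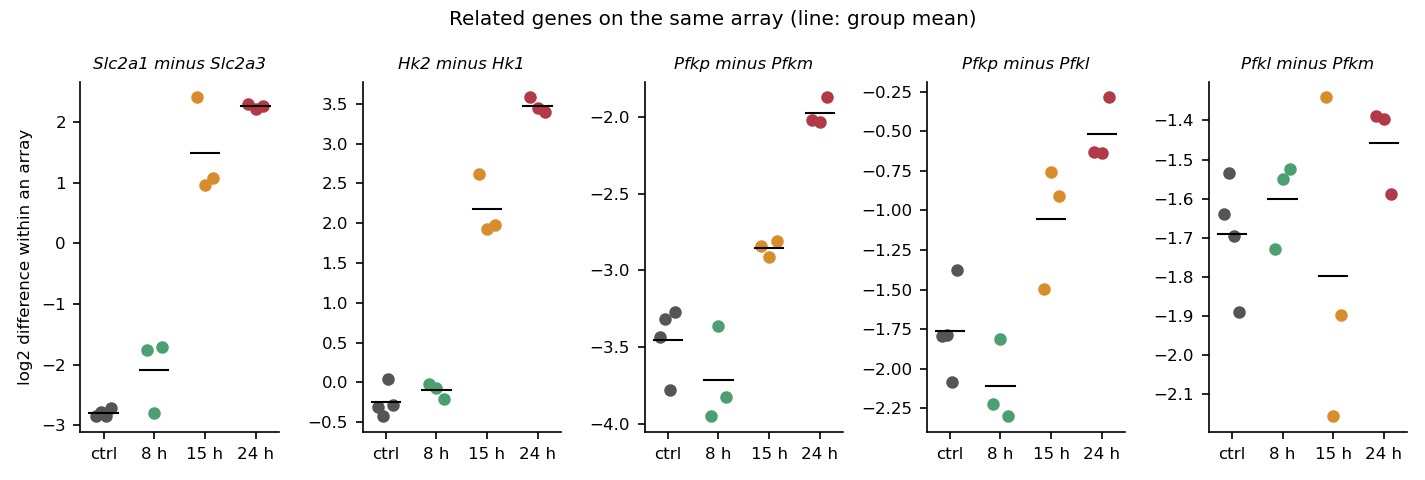
Log2 difference between 2 related members on the same array, for controls and each time of rotenone, with a line at the group mean. Slc2a1 minus Slc2a3 and Hk2 minus Hk1 leave the control range at 15 h and 24 h. Pfkl minus Pfkm lies on both sides of its control range at 15 h and overlaps that range at 24 h. Axes differ between panels and do not start at 0.

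Gpi1, which converts glucose 6-phosphate and fructose 6-phosphate into each other (chromosome 7, 34201327 to 34230336), was called higher only with quantile scaling. Deposited signals were 2491.4, 2191.5, 1918.6 and 1745.2 in controls, 2145.2, 1548 and 1831.2 at 8 h, 2080.5, 2085.3 and 1938.4 at 15 h, and 1827.7, 1815.3 and 2245 at 24 h. Before scaling, all groups overlapped. After it the change was -0.16 ± 0.08 at 8 h (adjusted p = 0.527), 0.58 ± 0.08 at 15 h (3.28e-05) and 0.74 ± 0.08 at 24 h (1.71e-06). The second Gpi1 probe gave 0.15 ± 0.24 and 0.49 ± 0.24 at these later times (adjusted p = 0.631 and 0.0957 over probes). With median scaling in place of quantiles the values were 0.07 and 0.06 (adjusted p = 0.696 and 0.727), and without scaling -0.02 and -0.08. Relative to the median of all genes Gpi1 was higher under all 4 scalings, by 0.23 to 0.56 at 15 h and by 0.31 to 0.73 at 24 h.

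Of the phosphofructokinase subunits, which join in tetramers, Pfkl and Pfkm fell at 15 h and 24 h, and Pfkp was higher at 24 h. Pfkl, named for liver (chromosome 10, 77986947 to 78009807), gave signals of 1147.8, 1173.8, 964.9 and 741.6 in controls and 1025.6, 896.7 and 1006.6 at 8 h. They were 415.4, 446.8 and 466.9 at 15 h and 425.2, 427.9 and 485 at 24 h, below all control and 8 h arrays. Its log2 change was 0.01 ± 0.10 at 8 h (adjusted p = 0.993), -0.55 ± 0.10 at 15 h (3.46e-04) and -0.34 ± 0.10 at 24 h (0.0114). Within each chip the 24 h value lay between -0.43 and -0.24 and was called in 1 of 4 fits.

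Pfkm, named for muscle (chromosome 15, 98092589 to 98132447), had 3656.4, 3482.2, 3157.8 and 2848.8 in controls and 3491.9, 2823.3 and 2966.4 at 8 h. At 15 h it had 1133.2, 1935.3 and 1719.2 and at 24 h 1103.5, 1113.2 and 1423.7, below all controls, with the first 15 h array among those of 24 h. Its log2 change was -0.08 ± 0.12 at 8 h (adjusted p = 0.876), -0.44 ± 0.12 at 15 h (0.00530) and -0.57 ± 0.12 at 24 h (6.16e-04). Without 15 h replicate 1 the 15 h value was -0.25 (adjusted p = 0.00714). Within each chip it ranged from -0.83 to -0.24 at 15 h, called in 1 of 4 fits, and from -0.62 to -0.47 at 24 h, called in 3 of 4. The second Pfkm probe gave -0.33 ± 0.20 at 15 h (adjusted p = 0.187 over probes) and -0.85 ± 0.20 at 24 h (0.00170).

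Pfkp, named for platelets (chromosome 13, 6579874 to 6649060), had deposited signals of 298.2, 309, 204 and 270.4 in controls and 182.6, 228.3 and 176.1 at 8 h. They were 139.4, 262 and 248.8 at 15 h and 273.5, 273.1 and 396.8 at 24 h. Only the last lay above all controls before scaling. The log2 change was -0.34 ± 0.17 at 8 h (adjusted p = 0.484), 0.16 ± 0.17 at 15 h (0.451) and 0.90 ± 0.17 at 24 h (2.36e-04). The second detected probe had the opposite sign at 8 h and 15 h, with 0.10 ± 0.13 and -0.17 ± 0.13 (adjusted p = 0.873 and 0.314 over probes). It gave 0.56 ± 0.13 at 24 h (adjusted p = 0.00180 over probes). The call at 24 h ended with median scaling (0.35, adjusted p = 0.133), with the authors' normalized values (0.46, 0.0824) and without scaling (0.21, 0.347).

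A difference between subunits within an array does not change with a factor common to that array, though it does depend on the quantile scaling. Pfkp minus Pfkm averaged -3.45 ± 0.23 (SD, n = 4) in controls, -3.71 ± 0.31 at 8 h, -2.85 ± 0.05 at 15 h and -1.98 ± 0.09 at 24 h (n = 3 each). It moved by 1.47 to 24 h (exact permutation test over the 4 groups, p = 7.49e-05, adjusted p = 1.67e-04 over 5 pairs). Under 6 other settings, scalings among them, it moved by 1.44 to 1.65. Pfkp minus Pfkl moved by 1.24, from -1.76 ± 0.29 to -0.52 ± 0.20 (exact permutation test over the 4 groups, p = 5.84e-04, adjusted p = 7.31e-04). Pfkl minus Pfkm moved by 0.23, from -1.69 ± 0.15 to -1.46 ± 0.11 (exact permutation test over the 4 groups, p = 0.362, adjusted p = 0.362), with control and 24 h arrays ranging from -1.89 to -1.53 and from -1.59 to -1.39. Without 15 h replicate 1 its adjusted p was 0.0132. For 24 h against control alone the exact two-sided p was 0.0286 for both Pfkp differences and 0.114 for Pfkl minus Pfkm.

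Pfkfb3 (chromosome 2, 11471430 to 11554071) rose at 15 h and again by 24 h. Signals were 314.4, 319.3, 259.8 and 257.7 in controls, 383.7, 260 and 309 at 8 h, 356.3, 444.8 and 434.5 at 15 h, and 428.1, 472.8 and 566.5 at 24 h. The later arrays lay above every control, and at 8 h replicate 1 alone did before scaling. The log2 change was 0.16 ± 0.09 at 8 h (adjusted p = 0.604), 1.02 ± 0.09 at 15 h (3.33e-07) and 1.47 ± 0.09 at 24 h (2.96e-09), or 2.76-fold at 24 h. From 15 h to 24 h it rose by 0.45 ± 0.10 (adjusted p = 0.00447), a call that ended with median scaling (0.29, 0.223), with no scaling (0.24, 0.396) and with the authors' values (0.38, 0.110).

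**Figure D3:**
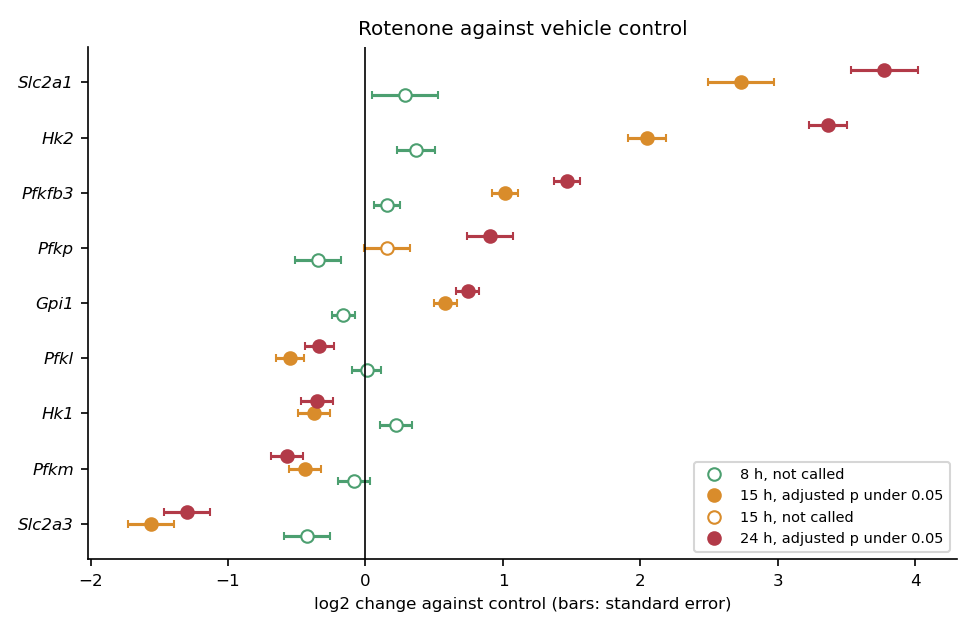
Log2 change of each member against vehicle control at 8 h, 15 h and 24 h, with limma's standard error. Filled points have an adjusted p under 0.05. Slc2a1, Hk2 and Pfkfb3 lie to the right at the later times, up to 3.77, Slc2a3 lies to the left, and no 8 h point is filled.

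Counted together, 0 of 9 members were called by limma at 8 h, where 0.434% of all genes were called (0.145% higher and 0.289% lower). At 8 h 2 members (Hk2 and Slc2a3) had an unadjusted p under 0.05, where 10.7% of all genes had one. With array weights 5 were called at 8 h (Slc2a1, Hk2 and Hk1 higher, Slc2a3 and Pfkp lower), where 24.0% of all genes were. Within matched chip B, where 8 h has replicate 1 alone, 4 were (those without Hk1), where 13.2% of all genes were. At 15 h 4 rose and 4 fell, where 50.1% of all genes were called (25.4% higher and 24.7% lower). At 24 h 5 rose and 4 fell, where 54.7% were called (27.4% higher and 27.3% lower). Groups did not overlap on the normalized scale for 2 members at 8 h, 8 at 15 h and 9 at 24 h, and for 11.4%, 50.1% and 60.9% of all genes. Calls were thus common in these arrays, and the members divided in direction. Under median scaling, no scaling and the authors' values alike, 3 rose and 4 fell at both later times. Called at 15 h among all 11064 genes were 1409 higher and 4564 lower with median scaling, and 826 and 5171 with no scaling. The authors' values gave 1450 and 4477. At 24 h the counts were 1502 and 5384, 906 and 6547, and 1645 and 5050, in the same order. The median log2 change of the members was 0.01, 0.16 and 0.74 at the 3 times, against -0.004, 0.02 and 0.01 over all genes. The 15 h median is the value of Pfkp and the 24 h median that of Gpi1, and with median scaling they were -0.24 and 0.06, against -0.16 and -0.25 over all genes.

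Between times, 5 members rose and 4 fell from 8 h to 15 h, where 51.1% of all genes were called (25.8% higher and 25.3% lower). Those that fell were Slc2a3 (-1.14), Hk1 (-0.60), Pfkl (-0.56) and Pfkm (-0.36), and those that rose ranged from 0.50 for Pfkp to 2.45 for Slc2a1. The call of Pfkm ended without 15 h replicate 1 (-0.17, adjusted p = 0.0668) or either of 8 h replicates 1 and 3 (-0.34 and -0.35). That of Pfkp ended without any of 8 h replicates 1 and 3 and 15 h replicates 2 and 3 (0.40 to 0.45). The second detected Pfkp probe went the other way from 8 h to 15 h (-0.27 ± 0.14, adjusted p = 0.124 over probes). From 15 h to 24 h 4 members rose, Slc2a1, Hk2, Pfkp (0.75 ± 0.18, adjusted p = 0.00678) and Pfkfb3, and 0 fell, where 22.4% of all genes were called by limma (12.2% higher and 10.2% lower). The calls of Pfkp and Pfkfb3 ended under the other 3 scalings, with 0.54 to 0.70 for Pfkp (adjusted p = 0.0539 to 0.0851). No member had an unadjusted p under 0.05 in the lower direction there, and without 15 h replicate 1 Pfkm was lower (-0.32, adjusted p = 0.00457). From 8 h to 24 h 5 rose and 4 fell, where 55.1% of all genes were called (27.6% higher and 27.5% lower). Pfkl lost that call without 8 h replicate 3 (-0.29, adjusted p = 0.0644) or 24 h replicate 3 (-0.32, 0.0503). Groups did not overlap for 8 members from 8 h to 15 h, 7 from 15 h to 24 h and 9 from 8 h to 24 h, and for 56.6%, 39.2% and 66.1% of all genes.

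The scaling between arrays set how large a change was, since array signals fell with time. With median scaling the median of all genes shifted by -0.16 at 15 h and -0.25 at 24 h, and without scaling by -0.25 and -0.39. Of all genes called at 24 h, 50.1% were higher with quantile scaling, 21.8% with median scaling and 12.2% with none, and at 15 h the shares were 50.8%, 23.6% and 13.8%. Relative to the median of all genes under median scaling, the 24 h changes were 3.42 for Slc2a1, 3.11 for Hk2, 1.12 for Pfkfb3, 0.60 for Pfkp and 0.31 for Gpi1. They were -0.34 for Hk1, -0.73 for Pfkl, -1.04 for Pfkm and -1.70 for Slc2a3. The order of the members was that given by quantiles except that Hk1 and Pfkl exchanged places. Slc2a1, Hk2, Pfkfb3 and Slc2a3 were called against control at 15 h and 24 h under all 4 scalings. So were Hk1, Pfkl and Pfkm, whose 24 h changes with median scaling were -0.59, -0.98 and -1.29. Within a chip the 24 h changes of Slc2a1, Hk2, Pfkfb3 and Slc2a3 were 3.58 to 3.93, 3.29 to 3.46, 1.34 to 1.57 and -1.47 to -1.16 over 4 fits. Chip A holds 1 array of 24 h and chip B 1 of 8 h and 1 of 15 h under either assignment, and the lone array is assumed to vary like the other groups.

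**Figure D4:**
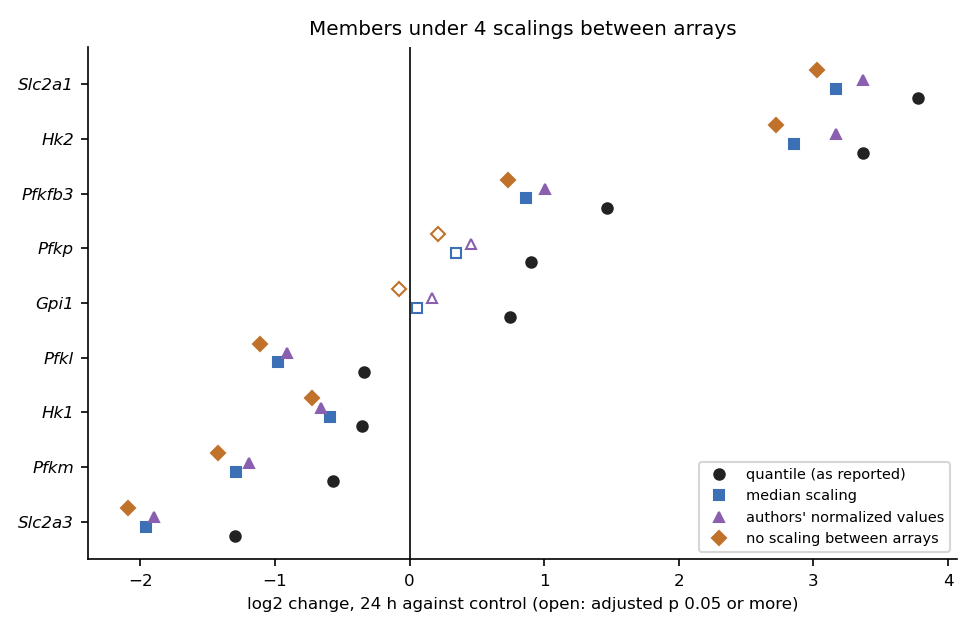
Log2 change of each member at 24 h against control under 4 scalings between arrays, with open markers where the adjusted p was 0.05 or more. All members move to the left without quantile scaling, and Gpi1 (0.74 with quantiles, -0.08 without scaling) and Pfkp are the members whose call ends.

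The other genes of the pathway give the setting of the 9 members. Other enzymes and regulators of upper glycolysis were measured for 8 of 13 listed, of which 3 rose and 3 fell at 15 h and 2 rose and 3 fell at 24 h. With median scaling 1 rose and 3 fell at each time. Pfkfb2 and Pfkfb4, which like Pfkfb3 make and break down fructose 2,6-bisphosphate, both fell, by 0.80 and 0.66 at 15 h and by 0.91 and 0.74 at 24 h. Pfkfb3 thus rose while both relatives fell. Adpgk, an ADP-dependent glucokinase, rose by 0.51 and the hexokinase Hk3 by 0.33 at 24 h, the former not called with median scaling. The gluconeogenic bisphosphatases Fbp1 and Fbp2 rose by 0.20 and 0.23 at 15 h, neither of them called with median scaling.

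Of 20 genes of lower glycolysis and lactate 15 were measured, of which 3 rose and 4 fell at 15 h and 4 rose and 3 fell at 24 h. With median scaling 0 were called higher and 8 lower at each of these times, and the 24 h median was -0.43 in place of 0.04. The aldolases Aldoa and Aldoc rose by 0.95 and 0.94 at 24 h, neither of them called with median scaling (0.29 and 0.31). Eno2, the neuronal enolase, fell by 1.30 at 15 h and by 0.94 at 24 h, and Ldha, a lactate dehydrogenase subunit, fell by 1.25 and 0.59. Ldha is a textbook HIF target, as Slc2a1 and Hk2 are, and the part of HIF in these changes was not tested.

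Branches that leave glucose 6-phosphate were measured for 13 of 18 genes, with 5 higher and 2 lower at 15 h and 8 higher and 1 lower at 24 h. Their median change at 24 h was 0.43, against 0.01 over all genes. With median scaling 1 was higher and 5 lower at 15 h and 3 were higher and 4 lower at 24 h, with a 24 h median of -0.11 against -0.25 over all genes. Pgd and Taldo1 of the pentose phosphate pathway rose by 1.27 ± 0.10 and 1.10 ± 0.11 at 24 h, and remained called with median scaling (0.58 and 0.42). G6pdx, which opens that pathway, fell by 0.40 at 15 h, and Mpi, which leads to mannose, fell by 0.29 and 0.41 at the later times. Gnpda1, which joins amino sugars to the pathway, rose by 0.70 at 15 h. Pgm1, which leads to glycogen, rose by 0.68 at 15 h and was not called with median scaling.

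Of 20 other HIF targets 17 were measured, with 8 higher and 3 lower at 15 h and 7 higher and 3 lower at 24 h. With median scaling 6 were higher and 5 lower at 15 h, and 5 higher and 5 lower at 24 h. Vegfa, the angiogenic growth factor, rose by 1.56 and 1.85, and Plin2, a lipid droplet protein, by 1.32 and 2.03. Bnip3l, a mitophagy receptor, fell by 0.65 and 0.75, and Pfkfb4 is also on this list. The median of the list was 0.12 at 15 h and 0.05 at 24 h, against 0.02 and 0.01 over all genes. At 8 h limma called 0 of the 58 genes measured on these 5 lists. Of these 58, 14 had an unadjusted p under 0.05 by limma, a larger share than the 10.7% of all genes.

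**Figure D5:**
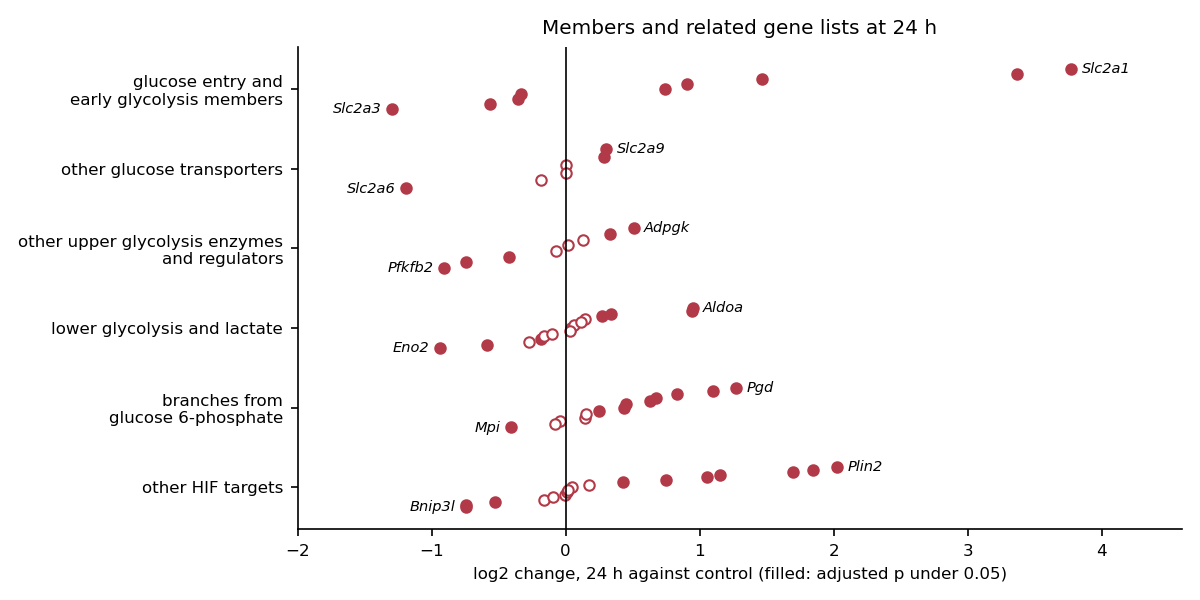
Log2 change at 24 h against control of the 9 members and of the measured genes of 5 related lists, 1 point per gene, with filled points for an adjusted p under 0.05 and the lowest and highest gene named. Slc2a1 and Hk2 lie beyond every gene of the other lists, of which Plin2 (2.03) is the highest.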

How the data were processed

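Bead signal intensity per probe was deposited by the authors, unscaled between arrays. A gene profile from BeadStudio 3.2.6, per the file headers, holds unnormalized signal intensity per gene. Its detection values are a fraction, 1 minus a p-value, as deposited. The normalized values of the authors are a ratio of the signal to the array's median and then to the controls' median, found by recomputing the deposited values (largest relative difference 3.75e-07). Each sample was matched to a profile array by identical signals (tolerance 0.05). Of 16 profile arrays 3 belong to no sample, and 102 profile columns of per-array values were not used.

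Signals were corrected with normexp (offset 50), quantile scaled over 13 arrays and taken as log2. Probes with a detection p under 0.05 on at least 3 arrays were kept (14366), and the brightest probe stood for its gene (11064 genes). Symbols came from RefSeq accessions (20514 probes) or descriptions (2557), with 1073 probes unnamed. One linear model of the 4 groups was fitted per gene with limma 3.58.1 (R 4.3.3), moderated with an intensity trend and leaving 9 residual degrees of freedom. Each of 6 comparisons was adjusted by Benjamini-Hochberg over all genes, and calls were made under 0.05. Pairs of members were compared by exact permutation of the F statistic over all 1201200 arrangements of the arrays. For 24 h against control alone the mean difference was permuted over 35 arrangements. The fit and the permutation test were checked on simulated data. Levels are not compared between probes.

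All 9 members are named, with the 2 largest called rises and falls of each of 5 pathway lists and the 5 genes most like each carrier. The members and lists were chosen with earlier results of these data known. Promoters are RefSeq windows of GRCm38.p6. Same-numbered replicates deviated together by over 0.1 in 5 of 18 pairs (correlations -0.124 to 0.215), so the numbers were not taken as pairing samples. The alternatives were other background corrections, scalings, detection filters, probe rules, blocks, array weights, leaving out each array, and fitting the compared groups alone. Blocks and fits by matched chip were added after seeing the data.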

Additional observations from a re-analysis of the deposited data

Results flagged for a closer look

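For 22 results the change against control differed between 2 times, by limma's test of the difference between those times on the log2 scale. All such differences share the arrays of the times compared. From 8 h to 15 h the change became more positive by 2.45 for Slc2a1, 1.68 for Hk2, 0.86 for Pfkfb3, 0.74 for Gpi1 and 0.50 for Pfkp. The second detected Pfkp probe gave -0.27 there. The change differed by -1.14 for Slc2a3, -0.60 for Hk1, -0.56 for Pfkl and -0.36 for Pfkm. From 15 h to 24 h it became more positive by 1.32 for Hk2, 1.04 for Slc2a1, 0.75 for Pfkp and 0.45 for Pfkfb3. From 8 h to 24 h the differences were 3.49 for Slc2a1, 3.00 for Hk2, 1.31 for Pfkfb3, 1.25 for Pfkp and 0.91 for Gpi1, and -0.87 for Slc2a3, -0.58 for Hk1, -0.49 for Pfkm and -0.34 for Pfkl. No control array stood apart from the other 3 by Dixon's test in the 14 sets of values examined, and groups of 3 arrays were not examined.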

How the results depend on the processing

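The 4 arrays per group or fewer limit the precision, chip and array could not be matched by label, and the calls against control at 8 h were the least settled. Genes called at 8 h (48) numbered 17 with the replicate block and 17 with only the groups compared, 2654 with array weights (5 members), 3 within the labels' chip A and 0 within chip B (limma, with 857 at an unadjusted p under 0.05), and 3 and 1458 (4 members) within matched chips A and B. Leaving out single arrays gave 10 (without 8 h replicate 1 or 3) to 184 (without 15 h replicate 1). Within chips A and B by label, counts were 3625 and 2542 (5 members within B) at 15 h, 3065 (5 members) within A at 24 h, 2564 (5 members) within B for 15 h against 8 h, 3164 and 4032 for 24 h against 8 h, and 363 (1 member) and 548 (2 members) for 24 h against 15 h. Within matched chip A they were 3516 at 15 h, 3711 at 24 h and 679 (1 member) for 24 h against 15 h, where matched chip B gave 5047 and array weights 4811 (7 members). Of the 4 members called for 24 h against 15 h, 2 were called with median scaling, 2 with no scaling and 2 with the authors' values. The sign turned for Gpi1 without scaling (-0.0241 at 15 h, -0.08 at 24 h), where all genes shifted by -0.25 and -0.39, for Pfkp at 15 h (not called in the fit reported) with median scaling (-0.24), no scaling (-0.33), the authors' values (-0.24) and within matched chip B (-0.29, called), and for Pfkm from 15 h to 24 h there (0.21), where 15 h has 1 array, assumed to vary like the other groups. No other result that was called in the fit reported or under the alternative changed sign. The cause was not tested beyond fewer arrays within a chip. Pfkl minus Pfkm ranged from 0.17 to 0.30 when single arrays were left out. Whether the replicate numbers pair the samples is not settled, since 7 of 13 arrays correlated best, among arrays of other groups, with one of their own number. Control replicate 4 could not, as no other group has that number. With the replicate block the pairs of members had adjusted p of 0.00868, 0.00579, 0.00434, 0.00434 and 0.438 by permutation within numbers, with no call changed.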

Other observations

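Over the 13 arrays, which share their groups, the normalized levels of the members that rose ran together. Pearson's r with Slc2a1 was 0.986 for Hk2, 0.970 for Pfkfb3, 0.953 for Gpi1 and 0.675 for Pfkp, as a description. It was -0.856 for Slc2a3, -0.921 for Pfkm, -0.763 for Hk1 and -0.755 for Pfkl.

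The 8 h arrays were uneven in several members at once. On the normalized log2 scale Slc2a1 was 8.37 and 8.45 in replicates 1 and 3 and 7.75 in replicate 2, and Hk1 was 7.44, 7.53 and 7.08 in the same order. Slc2a3 went the other way, at 10.13, 10.16 and 10.55, and so did Pfkp, at 7.35, 7.46 and 7.86. Control replicate 3 had the highest Slc2a1 (8.39), Slc2a3 (11.25) and Hk2 (7.14) and the lowest Pfkp (7.54) of the 4 controls.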
